A study of Mus musculus with 10 samples.

Results

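The 10 genes described here encode the core of 2 lytic forms of cell death, necroptosis and pyroptosis: *Ripk1*, *Ripk3*, *Mlkl*, *Nlrp3*, *Pycard*, *Casp1*, *Casp4*, *Gsdmd*, *Il1b* and *Il18*. They were taken by name from a table of 54532 genes, and each name matched 1 gene. Their RNA was measured by RNA-seq in 10 whole neural retinas of 2-month-old BALB/c mice, an albino strain, after 12 hr of dark adaptation. The mice were then kept for 1 day either under normal light of 200 lux (NL, 5 retinas, numbered 1, 4, 5, 7 and 8) or under high-intensity light of 15000 lux to cause light damage (LD, 5 retinas, numbered 1, 4, 6, 7 and 8). No allele or drug differed between the groups. The paper describes the 5 samples of each group as biological replicates, but no label says which retinas came from the same mouse. The p-values therefore measure the spread between these samples, part of which may be technical.

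In necroptosis, the kinases RIPK1 and RIPK3 assemble below death receptors, and RIPK3 phosphorylates MLKL, which then permeabilizes the plasma membrane. In pyroptosis, a sensor such as NLRP3 joins the adaptor ASC, the product of *Pycard*, to activate caspase 1, while the mouse *Casp4* product, often called caspase 11, responds to intracellular lipopolysaccharide. Both caspases cleave gasdermin D into a pore-forming fragment, and caspase 1 also matures interleukin 1 beta and interleukin 18. These proteins are controlled largely by phosphorylation, assembly and cleavage, so that the level of a transcript does not tell whether the pathway ran.

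A gene was called changed where its adjusted p in limma stayed below 0.01 and it differed by more than 2-fold. After LD, 6 of the 10 genes were called higher and none lower. On the log2(FPKM + 0.1) scale *Mlkl* and *Casp1* had the largest changes, and *Casp4*, *Ripk1*, *Gsdmd* and, at the limit, *Nlrp3* had smaller ones. This order depends on the pseudocount, which shrinks the change of low genes: in limma-voom on the recovered reads *Casp4* (3.76) was level with *Casp1* (3.74), and *Nlrp3* (1.93) was above *Ripk1* (1.55) and *Gsdmd* (1.30). *Pycard* had a smaller increase under 2-fold, *Il1b* and *Il18* did not pass the test, and *Ripk3* had too few reads to enter it. Among all 24508 genes tested, 6.51% were called, 4.13% as higher and 2.37% as lower. The lowest LD retina was above the highest NL retina in 8 of the 10 genes, among them *Ripk3*, which was not tested. This order held for 11.8% of the genes tested. *Mlkl*, *Nlrp3* and *Casp4* reached the minimum of 0.1 FPKM in every LD retina and in no NL retina, which by itself sets their groups apart. Among the 118 tested genes with that pattern 87.3% were called higher. For these 3 genes neither the separation of the groups nor the call says much beyond the pattern. Whole retinas were sequenced, and therefore more cells of a type and more RNA per cell cannot be told apart.

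**Figure D1:**
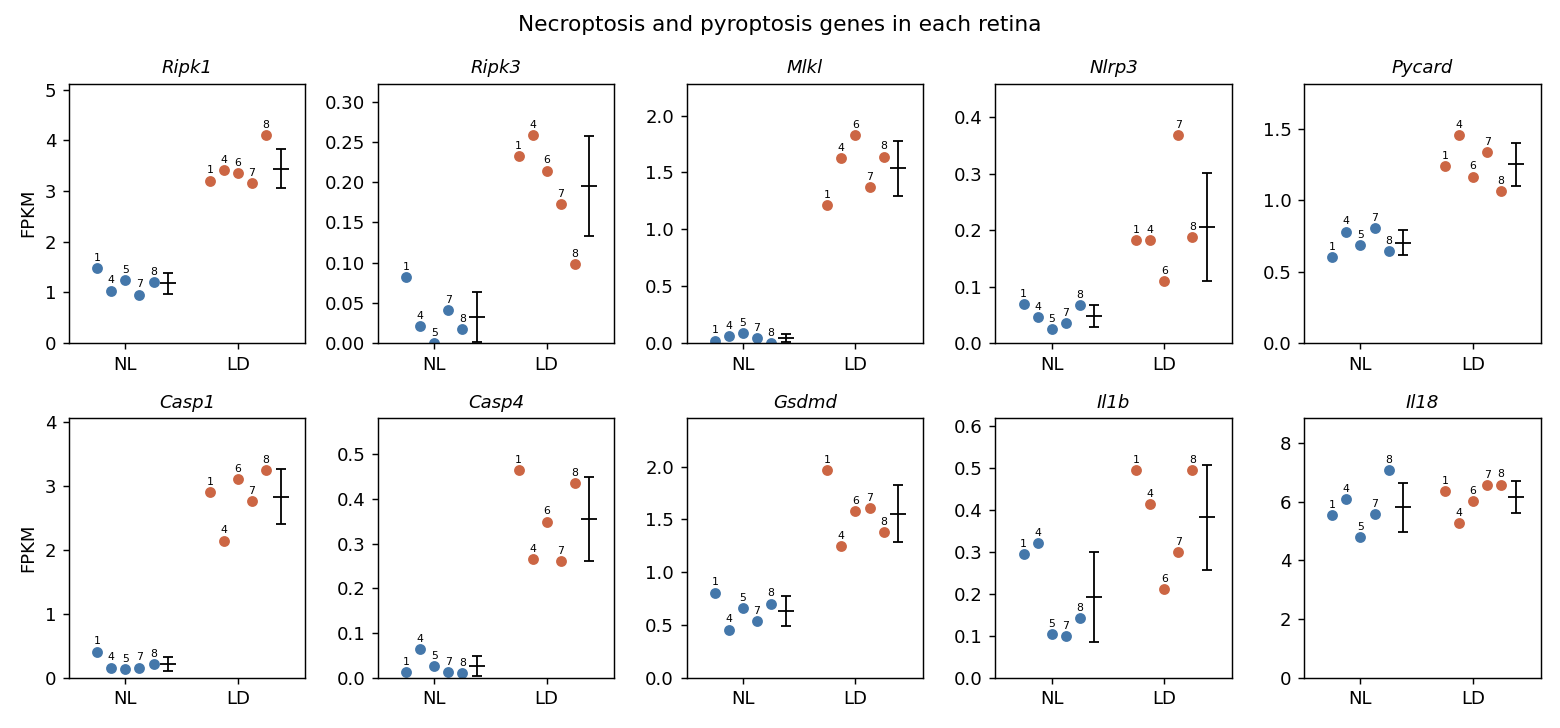
Level of each gene in FPKM (y axis, linear, starting at 0, with its own scale per gene) in the 5 NL retinas (blue) and the 5 LD retinas (orange), numbered as labelled; bars give the mean and SD of each group. The groups are apart in 8 genes and overlap for *Il1b* and *Il18*.

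FPKM, fragments per kilobase of gene scaled to library size, allows levels to be compared between genes. In NL retinas *Il18* was highest by far, at 5.81 ± 0.844 FPKM (SD, n = 5), followed by *Ripk1* at 1.18 ± 0.206 FPKM, and the ranges of these genes did not overlap. *Pycard* and *Gsdmd* followed with overlapping ranges, then *Casp1* and *Il1b*, whose ranges also overlapped. *Nlrp3*, *Mlkl*, *Ripk3* and *Casp4* were lowest, each with a mean under 0.1 FPKM, and neighbours in this order overlapped. In LD retinas *Il18* and *Ripk1* were still the highest, with *Casp1* in the third place and a range that overlapped that of *Ripk1*. *Gsdmd*, *Mlkl* and *Pycard* followed, then *Il1b*, *Casp4*, *Nlrp3* and *Ripk3*, and within each of these sets the ranges of neighbours overlapped. *Pycard* has a length of 3800 bases in the table because 1 coding transcript runs through most of the gene, while the other is 493 bases long, and its level per kilobase is low to the extent that RNA came from the short form. Apart from *Casp1* and *Pycard*, the length used exceeds the longest coding transcript. The gap is largest for *Casp4* (3710 against 1435 bases), followed by *Ripk1* (8344 against 6472). It is 1907 against 1356 bases for *Il1b*. The places of these genes in the order may be too low for this reason.

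Of the necroptosis kinases, *Ripk1* (ENSMUSG00000021408, chromosome 13 from 34002363 to 34037147, plus strand, GRCm38) has a coding transcript of up to 11 exons. It was at 1.49, 1.03, 1.23, 0.954 and 1.20 FPKM in NL-1, NL-4, NL-5, NL-7 and NL-8, and at 3.20, 3.42, 3.35, 3.16 and 4.10 FPKM in LD-1, LD-4, LD-6, LD-7 and LD-8. All LD retinas lay above the NL retinas, with LD-8 above the other 4. The means were 1.18 ± 0.206 and 3.44 ± 0.380 FPKM (SD, n = 5 each), a ratio of 2.92, and limma put the log2 fold change at 1.48, with a standard error of 0.13 (adjusted p = 1.49e-05). Between 169 and 761 reads per retina stood behind these values, more than for any other of the 10 genes. The gene overlaps *Serpinb6a* and *Gm17083* on the opposite strand, which rose by 1.33 and 1.70 on the log2 scale, and whether reads were counted by strand is not given in the sources used here.

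The sequence around 1 of the 2 annotated *Ripk1* start sites is shown because it was the only window of these genes that held both interferon-type motifs searched (window chr13:34002624-34002923, plus strand, 250 bases before to 50 after the start site, RefSeq on GRCm38.p6). Capitals mark matches to the core of the interferon-stimulated response element (GAAA, any 2 bases, GAAA) and to the gamma-activated site bound by STAT factors (TTC, any 3 bases, GAA). The second gamma-activated site match overlaps the response element match.
Ripk1: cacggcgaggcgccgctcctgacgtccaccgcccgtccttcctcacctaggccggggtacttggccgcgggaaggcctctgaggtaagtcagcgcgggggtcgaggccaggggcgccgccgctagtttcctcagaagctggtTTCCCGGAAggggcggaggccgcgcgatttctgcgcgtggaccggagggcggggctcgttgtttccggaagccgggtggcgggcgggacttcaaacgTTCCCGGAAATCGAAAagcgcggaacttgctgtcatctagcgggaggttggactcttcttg
The gamma-activated site letters were at bases 143 to 151 and 240 to 248 of the window, and the response element letters at bases 246 to 255. On both strands, 3.44% of the 32851 mouse promoter windows held the response element letters and 8.3% the gamma-activated site letters.

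*Ripk3* (ENSMUSG00000022221, chromosome 14 from 55784995 to 55788865, minus strand) encodes the kinase that phosphorylates MLKL. It had 4, 1, 0, 2 and 1 reads in NL-1, NL-4, NL-5, NL-7 and NL-8, and 13, 12, 11, 9 and 5 reads in LD-1, LD-4, LD-6, LD-7 and LD-8. The LD retinas were all above the NL retinas, but LD-8, at 0.0980 FPKM, was close to NL-1, at 0.0816 FPKM. The mean rose from 0.0320 ± 0.0313 to 0.195 ± 0.0627 FPKM (SD, n = 5 each; p = 0.00794 in a two-sided exact permutation test, which cannot go lower with 5 retinas in each group). Because only 4 retinas reached 0.1 FPKM, the gene did not enter the limma comparison. Without the minimum, over 36402 genes, limma gave it a log2 fold change of 1.16 with a standard error of 0.22 (adjusted p = 0.0044).

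*Mlkl* (ENSMUSG00000012519, chromosome 8 from 111311797 to 111338177, minus strand), which encodes the membrane-permeabilizing pseudokinase, was nearly silent in the NL retinas. There it was at 0.0203, 0.0613, 0.0856, 0.0409 and 0 FPKM in NL-1, NL-4, NL-5, NL-7 and NL-8, at most 4 reads per retina. After LD it was at 1.21, 1.63, 1.82, 1.37 and 1.64 FPKM in LD-1, LD-4, LD-6, LD-7 and LD-8, from 68 to 94 reads. The groups were far apart and the LD retinas lay close together, with LD-1 lowest and LD-6 highest. On the log2(FPKM + 0.1) scale limma put the log2 fold change at 3.55, with a standard error of 0.21 (adjusted p = 1.09e-06). It was 5.35 from the recovered reads in limma-voom, since the pseudocount of 0.1 FPKM exceeds every NL value. The processed pseudogene *Gm45712* overlaps *Mlkl* and had at most 6 reads. The start site of *Mlkl*, the gene with the largest change, is shown for comparison (window chr8:111338156-111338455, minus strand, printed 5′ to 3′ on that strand, GRCm38.p6).
Mlkl: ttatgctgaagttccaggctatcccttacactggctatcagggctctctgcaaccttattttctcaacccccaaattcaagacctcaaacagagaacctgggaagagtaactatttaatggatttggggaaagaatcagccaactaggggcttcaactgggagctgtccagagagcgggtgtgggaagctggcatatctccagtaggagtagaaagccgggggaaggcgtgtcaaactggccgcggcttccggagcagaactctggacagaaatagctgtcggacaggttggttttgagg
None of the motifs searched was found in this window, which says only that these letters are not in it.

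Among the inflammasome genes, *Casp1* (ENSMUSG00000025888, chromosome 9 from 5298517 to 5307265, plus strand) encodes the caspase that cleaves gasdermin D and interleukin 1 beta. It was at 0.406, 0.157, 0.132, 0.157 and 0.207 FPKM in NL-1, NL-4, NL-5, NL-7 and NL-8. The LD retinas were at 2.90, 2.14, 3.11, 2.76 and 3.24 FPKM in the order LD-1, LD-4, LD-6, LD-7 and LD-8. Behind these values stood 4 to 13 reads in each NL retina, against 65 to 108 after LD. NL-1 stood above the other NL retinas, yet the lowest LD retina, LD-4, was at more than 5 times its value. The means of 0.212 ± 0.112 and 2.83 ± 0.427 FPKM (SD, n = 5 each) had a ratio of 13.4, and limma put the log2 fold change at 3.28, with a standard error of 0.22 (adjusted p = 3.02e-06).

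*Casp4* (ENSMUSG00000033538, chromosome 9 from 5308828 to 5336783, plus strand) lies downstream of *Casp1* on the same strand and encodes the caspase of the noncanonical inflammasome. It was at 0.0126, 0.0634, 0.0266, 0.0127 and 0.0104 FPKM in NL-1, NL-4, NL-5, NL-7 and NL-8, which is 1 to 5 reads per retina. In LD-1, LD-4, LD-6, LD-7 and LD-8 it was at 0.464, 0.266, 0.349, 0.260 and 0.436 FPKM, from 20 to 42 reads. The groups did not overlap, and LD-1 and LD-8 were highest. In every LD retina *Casp4* was still below *Casp1*, in FPKM and in reads (65 to 108 for *Casp1*). With the pseudocount of 0.1 limma put the log2 fold change at 1.85, with a standard error of 0.21 (adjusted p = 8.95e-05). It was 3.76 from the recovered reads in limma-voom. A pseudocount of 1 FPKM gave 0.40, under 2-fold. No run of 31 bases was shared between the annotated transcripts of *Casp1* and *Casp4*.

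The *Casp4* start site is shown because it held the letters of an NF-kB type motif (GGG, any 2 bases, TTTCC) at 2 places (window chr9:5308599-5308898, plus strand, GRCm38.p6; capitals mark the matches, and the second is on the opposite strand).
Casp4: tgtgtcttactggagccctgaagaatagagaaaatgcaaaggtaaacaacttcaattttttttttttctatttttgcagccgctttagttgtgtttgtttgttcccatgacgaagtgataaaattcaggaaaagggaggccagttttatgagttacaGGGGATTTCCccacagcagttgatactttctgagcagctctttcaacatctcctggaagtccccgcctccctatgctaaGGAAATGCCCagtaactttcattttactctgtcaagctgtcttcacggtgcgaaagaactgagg
Sequences were found for 9 of the 10 genes, in 12 windows, the exception being *Gsdmd*. The 2 overlapping *Casp4* windows were the only ones with these letters, which 1.63% of all promoter windows hold on either strand. A narrower NF-kB form (GGGA, any base, TTTCC) was searched first, is held by 0.411% of all windows, and was in none of the 12. The wider form was chosen after the *Casp4* window had been seen, so its match is not independent of that choice. No window held TGANTCA, the AP-1 motif, which 7.81% of all windows hold. All motifs were chosen with the expression values known, and a match only describes the sequence.

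*Nlrp3* (ENSMUSG00000032691, chromosome 11 from 59541568 to 59566956, plus strand) encodes the inflammasome sensor and stayed at low levels. It was at 0.0692, 0.0464, 0.0243, 0.0348 and 0.0669 FPKM in NL-1, NL-4, NL-5, NL-7 and NL-8, and at 0.182, 0.182, 0.110, 0.368 and 0.188 FPKM in LD-1, LD-4, LD-6, LD-7 and LD-8. All LD retinas were above the NL retinas, and LD-7, with 34 reads, was well above the other LD retinas with 10 to 18 reads. The log2 fold change in limma, 1.01 with a standard error of 0.23 (adjusted p = 0.00784), was close to both limits. The adjusted p in limma passed 0.01 when NL-1 (0.0135), NL-4 (0.018), NL-5 (0.0222), NL-7 (0.0211), NL-8 (0.0139), LD-1 (0.0153), LD-4 (0.0171), LD-7 (0.0127) or LD-8 (0.0166) was left out, and without LD-7 the log2 fold change was 0.84. It was 1.93 with an adjusted p of 0.00377 from the recovered reads in limma-voom (range of the adjusted p over the alternatives 0.00377 to 0.0646).

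*Pycard* (ENSMUSG00000030793, chromosome 7 from 127989708 to 127993867, minus strand), the gene of the adaptor ASC, was at 0.603, 0.780, 0.687, 0.806 and 0.643 FPKM in NL-1, NL-4, NL-5, NL-7 and NL-8. In LD-1, LD-4, LD-6, LD-7 and LD-8 it was at 1.24, 1.45, 1.16, 1.34 and 1.06 FPKM. The groups did not overlap, but the ratio of the means was only 1.78. The log2 fold change was 0.75 (95% interval 0.45 to 1.05, adjusted p = 0.00188 in limma), so that it passed the limit for p and not the one for the fold change. *Gm45205* overlaps *Pycard* on the opposite strand and had at most 40 reads, against 49 to 116 reads per retina for *Pycard*. On the p limit alone 7 of the 10 genes were higher, against 9.3% of all genes tested. The same 7 genes were higher at an adjusted p below 0.05 in limma with no minimum fold change, as were 14.5% of all genes tested (27.8% differed in either direction).

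*Gsdmd* (ENSMUSG00000022575, chromosome 15 from 75862327 to 75867408, plus strand) encodes the pore-forming protein that both caspases cleave. It was at 0.807, 0.456, 0.663, 0.535 and 0.701 FPKM in NL-1, NL-4, NL-5, NL-7 and NL-8, and at 1.97, 1.24, 1.58, 1.61 and 1.38 FPKM in LD-1, LD-4, LD-6, LD-7 and LD-8. The lowest LD retina, LD-4, was above the highest NL retina, NL-1, and the mean rose from 0.632 ± 0.139 to 1.56 ± 0.274 FPKM (SD, n = 5 each). Here limma put the log2 fold change at 1.18, with a standard error of 0.17 (adjusted p = 5.62e-04). With a pseudocount of 1 it was 0.64, under 2-fold, and after averaging the 3 most alike pairs of retinas it was 1.15 with an adjusted p of 0.0106 in limma (range over the alternatives 2.34e-04 to 0.0122).

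Neither cytokine gene passed the test. *Il1b* (ENSMUSG00000027398, chromosome 2 from 129364570 to 129371139, minus strand) was at 0.294, 0.321, 0.103, 0.0988 and 0.142 FPKM in NL-1, NL-4, NL-5, NL-7 and NL-8. It was at 0.495, 0.414, 0.211, 0.299 and 0.495 FPKM in LD-1, LD-4, LD-6, LD-7 and LD-8, with LD-6 below NL-1 and NL-4. Its log2 fold change was 0.76 (95% interval 0.11 to 1.41) with an adjusted p of 0.0799 in limma (two-sided exact permutation test, p = 0.0476, not adjusted for the 10 genes). The reads numbered 4 to 13 in NL retinas and 9 to 23 in LD retinas, and a difference of 2-fold is within the interval. *Il1b* overlaps the antisense gene *Il1bos*, which had at most 14 reads.

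*Il18* (ENSMUSG00000039217, chromosome 9 from 50554827 to 50581840, plus strand) was the most abundant of the 10 genes in both groups. It was at 5.53, 6.07, 4.78, 5.57 and 7.07 FPKM in NL-1, NL-4, NL-5, NL-7 and NL-8, and at 6.36, 5.26, 6.03, 6.56 and 6.58 FPKM in LD-1, LD-4, LD-6, LD-7 and LD-8. The highest retina of all was NL-8 and the ranges overlapped almost fully. The log2 fold change was 0.09 (95% interval -0.14 to 0.32, adjusted p = 0.563 in limma), an interval that does not reach 2-fold. *Il18* had 100 to 188 reads per retina. On the opposite strand it overlaps *Bco2*, with at most 32 reads, and *Tex12*, with at most 11.

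**Figure D2:**
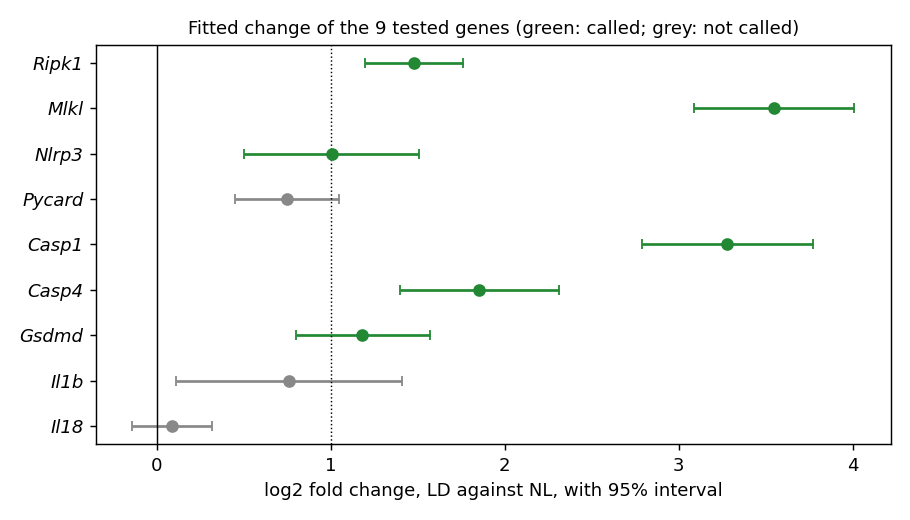
Log2 fold change of LD against NL (x axis) for the 9 genes tested, with the 95% interval from limma; the dotted line marks 2-fold, green marks called genes and grey the others. *Mlkl* (3.55) and *Casp1* (3.28) lie farthest to the right and *Il18* (0.09) at 0.

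The LD retinas did not rank alike across the 8 genes whose groups were apart. LD-1, LD-4 and LD-8 were each the highest in 2 of them, and LD-6 and LD-7 in 1 each. LD-4, LD-7 and LD-8 were each the lowest in 2. In the NL retinas, NL-1 was the highest in 5 of the 10 genes.

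Partners of both pathways were read from 4 lists of 59 genes, of which 44 were tested. Among these, 15 were called higher and 1 lower, where the shares over all genes tested were 4.13% higher and 2.37% lower. The 15 include *Zbp1*, *Il1rn* and *Il1rl1*, which reached 0.1 FPKM only in LD retinas, so that this count depends in part on that pattern. The median log2 fold change of the tested partners was 0.57, against -0.01 over all genes tested. Upstream of RIPK1 and RIPK3, 5 of 20 genes were called higher and 1 lower. *Zbp1*, a nucleic acid sensor that engages RIPK3, rose from 0.0466 ± 0.0154 to 2.21 ± 0.356 FPKM (SD, n = 5 each). Its log2 fold change was 3.97 (adjusted p = 9.28e-08 in limma), and like *Mlkl* it reached 0.1 FPKM only in LD retinas. Of the 118 tested genes with that pattern 87.3% were called higher, so that its call says little beyond the pattern. *Casp8*, the caspase that restrains necroptosis, rose from 0.304 ± 0.0718 to 1.98 ± 0.437 FPKM, a log2 fold change of 2.36 (adjusted p = 8.71e-06 in limma). The TNF receptor gene *Tnfrsf1a* rose by 2.25 and the double-stranded RNA receptor gene *Tlr3* by 2.15 on the log2 scale.
The 1 lower gene was *Tnfaip3*, which encodes the ubiquitin-editing protein A20, a brake on NF-kB signalling and on RIPK1. The mean of 41.5 ± 6.56 FPKM in NL retinas compared with 8.35 ± 1.67 FPKM in LD retinas, a log2 fold change of -2.30 (adjusted p = 1.57e-06 in limma). Outside the naming rule, the ubiquitin ligase gene *Birc3* was also higher, by 1.56 on the log2 scale, while 14 of the 20 genes, among them *Fadd*, *Cyld* and *Cflar*, were not called.

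Of 20 inflammasome sensors and regulators, 13 were tested, 7 were called higher and none lower, with a median log2 fold change of 1.20. The 5 with the largest change are known as interferon-inducible regulators and not sensors: *Gbp3* (4.84), *Gbp2* (4.03), *Irf1* (3.52), *Gbp5* (3.35) and *Gm12250* (3.26). *Gbp3* rose from 0.471 ± 0.161 to 15.8 ± 1.14 FPKM (SD, n = 5 each, adjusted p = 4.19e-08 in limma). *Gm12250*, also known as *Irgb10*, differed widely between LD retinas, from 2.12 FPKM in LD-1 to 11.2 FPKM in LD-4. Also outside that rule, *Casp12* (1.71) and the sensor gene *Naip2* (1.20) were the other 2 that were higher, and *Naip2* has near-identical paralogs among which reads could be split. The DNA sensor gene *Aim2* had a log2 fold change of 0.48 with an adjusted p of 0.128 in limma and overlapping groups. *Nlrp6*, *Mefv* and *Nlrp1b* were among the 7 genes with too few reads to be tested.

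Of 9 genes of other gasdermins and membrane rupture, 3 were tested. *Ninj1*, whose product ruptures the membrane of dying cells, rose from 4.79 ± 0.759 to 11.2 ± 1.52 FPKM, a log2 fold change of 1.21 (adjusted p = 5.41e-05 in limma). *Gsdme*, the gasdermin cut by caspase 3, was at 1.21 ± 0.142 and 1.70 ± 0.0736 FPKM, a log2 fold change of 0.47 (adjusted p = 0.00714) and under 2-fold. *Gsdma3* and *Gsdmc* had no read in any retina.

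In the interleukin 1 family, 8 of 10 genes were tested and 2 were called, both higher. *Il1rn*, which encodes the receptor antagonist, had 1 read over the 5 NL retinas, and between 18 and 90 in each LD retina. *Il1rl1*, the gene of the interleukin 33 receptor, whose soluble form acts as a decoy, went from 1 or 2 reads in each NL retina to between 25 and 38 after LD. Both reached 0.1 FPKM only in LD retinas, with log2 fold changes of 2.07 and 1.47 (adjusted p = 6.30e-04 and 7.09e-05 in limma). With that pattern 87.3% of tested genes were called higher, so that these 2 calls say little beyond the pattern.
The 6 genes tested and not called had positive log2 fold changes. *Il1r1* (0.86) and *Il18bp* (0.36) had an adjusted p under 0.01 in limma and less than 2-fold, while *Il33* (0.82), *Il1rap* (0.58), *Il1r2* (0.57) and *Il1a* (0.47) had an adjusted p of 0.0122 to 0.269. *Il1a* was at 1.72 FPKM in LD-1 and at 0.476 to 0.845 FPKM in the other LD retinas.

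**Figure D3:**
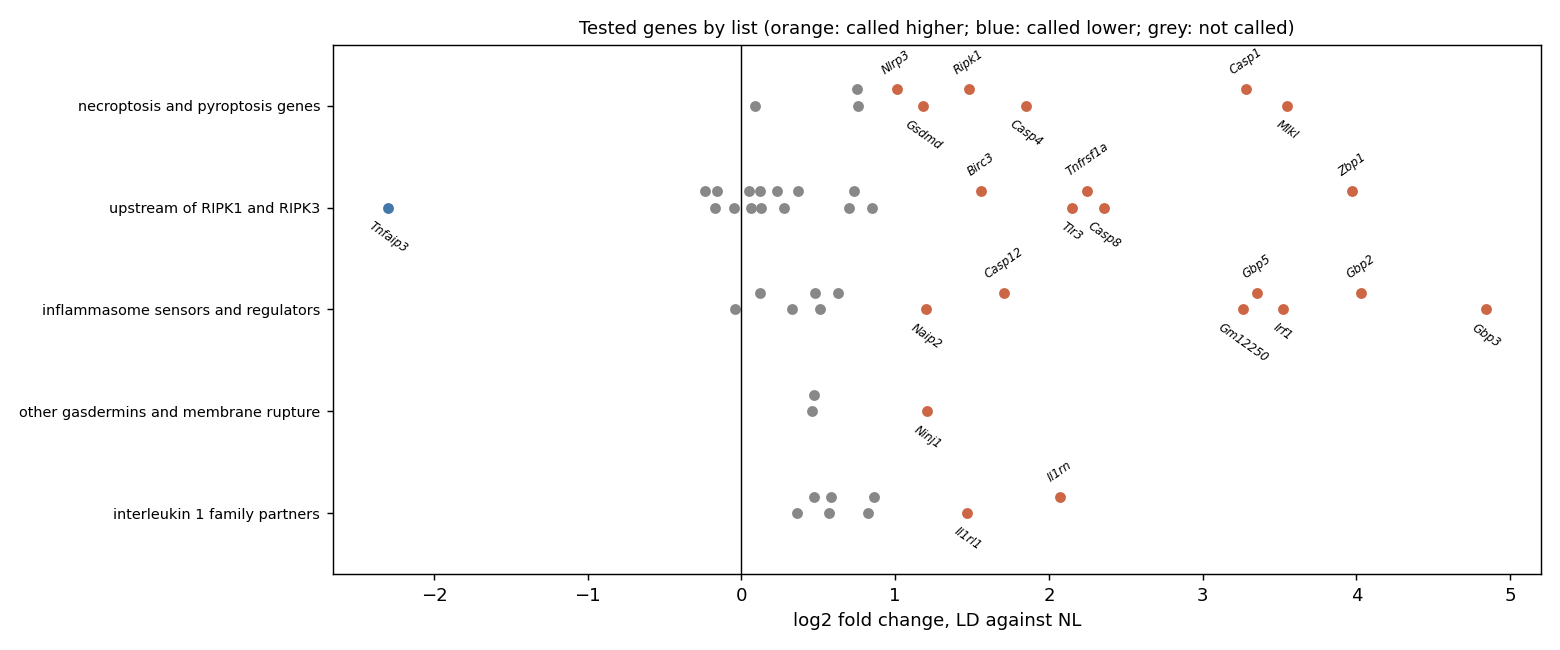
Log2 fold change of LD against NL (x axis) of each tested gene, by list (from top to bottom; points are staggered in height only to separate them); orange marks genes called higher, blue lower and grey not called. The interferon-inducible *Gbp3* (4.84) lies farthest right and *Tnfaip3* (-2.30) is the only called gene on the left.

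Most markers of microglia, monocytes and macrophages were also higher after LD. The summed level of 10 microglia markers was 27.4 to 42.4 FPKM in NL retinas and 48.5 to 116 FPKM in LD retinas. Of the 10, 6 were called higher, against 4.13% of all genes tested. The other 4 were not called and went both ways on the log2 scale: *Csf1r* (0.74), *Tmem119* (0.22), *Siglech* (-0.63) and *P2ry12* (-0.74). NL-1, the NL retina with the highest *Casp1*, also had the highest microglia sum of the NL retinas. The LD retinas showed no single order. Among the 8 genes with groups apart, LD-8, with the lowest microglia sum, was highest for *Ripk1* and *Casp1* and lowest for *Ripk3* and *Pycard*. LD-1, with the highest microglia sum, was highest for *Casp4* and *Gsdmd* and lowest for *Mlkl*. The sum of 7 monocyte and macrophage markers was 2.79 to 5.52 FPKM in NL and 14.5 to 24.4 FPKM in LD retinas, with all 4 tested markers called higher and *Lyz2* and *Cd68* the most abundant. Among the 4 called, *Plac8* reached 0.1 FPKM only in LD retinas, so that its call says little beyond that pattern. Of the markers not tested, *Ccr2* and *Ly6c2* had at most 1 read per NL retina, against 2 to 21 after LD, while the groups of *Ms4a7* overlapped.
Neutrophil markers stayed near the limit of detection, with a sum of 7 genes of 0.361 to 0.858 FPKM in NL and 0.429 to 1.01 FPKM in LD retinas, none of 4 tested called and *Elane* at 0 in all. The sum of 6 T and NK cell markers was 0.0499 to 0.179 FPKM in NL and 0.0619 to 0.306 FPKM in LD retinas, and none had enough reads to be tested. The part of any cell type in the changes of the 10 genes was not tested.

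**Figure D4:**
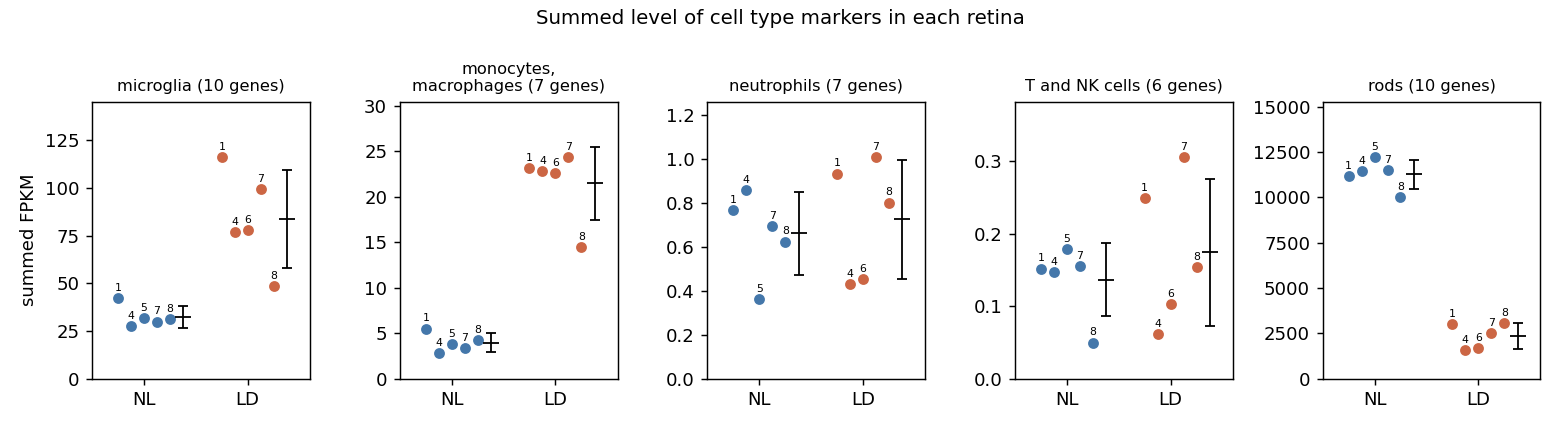
Summed FPKM of each marker list (y axis, linear, starting at 0, own scale per panel) in the 5 NL (blue) and 5 LD retinas (orange), numbered as labelled, with mean and SD. Microglia, monocyte and macrophage markers are higher in every LD retina, neutrophil and T and NK cell markers overlap, and rod markers are lower in every LD retina.

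The tissue label was checked with the same lists. The 10 rod markers summed to 10020 to 12210 FPKM in NL and 1565 to 3061 FPKM in LD retinas, and all 10 were called lower. Of 7 Muller glia markers 1 was called lower, *Glul*, and none of 6 endothelial, 6 pigment epithelium or 4 tested red blood cell markers was called. The red blood cell gene *Hba-a2* had no read in any retina. All 6 endothelial markers had positive log2 fold changes, from 0.06 to 0.78, and *Kdr* (0.70) had an adjusted p of 0.00876 in limma. Pigment epithelium markers were not absent from these neural retinas, at 52.8 to 140 FPKM in NL and 58.5 to 116 FPKM in LD, mostly *Ttr*. Depth was 21343389 to 26832535 recovered reads in NL and 18965090 to 23378090 in LD retinas. NL-5 and NL-7, LD-1 and LD-7, and LD-4 and LD-6 were closer to each other (chi-square per gene 2.52 to 3.41) than the other pairs of a group (10.9 to 38.5). They were kept as separate samples, and with these 3 pairs averaged 4 of the 6 called genes stayed called, *Gsdmd* and *Nlrp3* being lost.

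**Figure D5:**
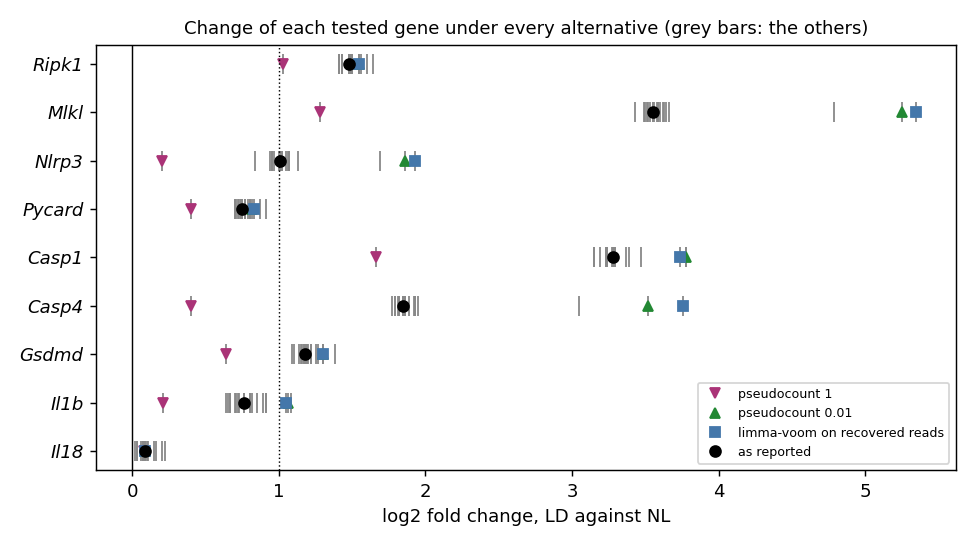
Log2 fold change (x axis) of each tested gene as reported (black) and under the 22 or 23 alternatives that could be computed for it (grey bars), with the pseudocounts of 1 and 0.01 and limma-voom marked; the dotted line is 2-fold. *Mlkl* spans 1.28 to 5.35 and *Casp4* 0.40 to 3.76, while all values lie to the right of 0.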

How the data were processed

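RNA was extracted with TRIzol, libraries were prepared with a TruSeq kit according to the labels, and normalization was left to the sequencing company. The authors deposited 1 table of FPKM values with gene identifiers, positions and lengths. The submitters' processing notes name Bowtie2 2.0.6, TopHat2 2.0.9 and the build mm8, although the positions of all 10 genes in the table are those of GENCODE M21 on GRCm38. The counting program, its use of strand and the annotation are not given in the sources used here. Samples were grouped by their titles.

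Multiplied by gene length, 100% of the values came out as whole reads (tolerance 0.001), and these reads were recovered. The library size in the deposited FPKM was the sum of these reads times 0.951 to 0.968 in NL and 1.041 to 1.069 in LD retinas. Genes under 0.1 FPKM in more than 5 retinas were left out, and log2(FPKM + 0.1) of the other 24508 was compared in limma 3.58.1 (R 4.3.3) without a block, with an intensity trend and p-values adjusted by Benjamini-Hochberg over these genes. The pseudocount makes the fold change of low genes too small. Exact permutation tests were two-sided, with scipy 1.17.1 under Python 3.11.15. The fit was tested on simulated data.

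The naming rule took all 10 genes, in each partner list up to 5 called genes with the largest change, the interleukin 1 family genes tested and not called, and up to 3 of the most abundant genes of a marker list. Other partner and marker genes named were chosen after their values were seen. The genes and lists were chosen with earlier results of these data known. Alternatives changed the pseudocount, filter, scaling, trend, test, threshold and retinas included. The fit with limma-voom on the recovered reads, and the wider NF-kB letters, were added after the values were seen.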

Additional observations from a re-analysis of the deposited data

Results flagged for a closer look

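For 2 of the 20 sets of 5 retinas (10 genes, 2 groups) Dixon's test at 95% set 1 retina apart, and chance alone gives about 1 such set. *Ripk1* was at 4.10 FPKM in LD-8 and at 3.16 to 3.42 FPKM in the other LD retinas. *Casp1* was at 0.406 FPKM in NL-1 and at 0.132 to 0.207 FPKM in the other NL retinas. Both genes remained called without the retina concerned.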

How the results depend on the processing

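*Ripk1*, *Mlkl* and *Casp1* stayed called in all 23 alternatives. Of the 6 called genes, 3 remained with a pseudocount of 1 (*Casp4*, *Gsdmd* and *Nlrp3* fell under 2-fold), and 816 genes were called in all. With an adjusted p under 0.05 and no minimum fold change, 6818 genes, 7 of the 10 (with *Pycard*) and 30 of the 44 tested partners were called. With each retina left out, 5 or 6 of the 10 genes and 1379 to 1603 of all genes were called. The adjusted p of *Il1b* stayed between 0.0454 and 0.198, and that of *Il18* between 0.124 and 0.885. Without the library factor per retina the median of all genes moved by 0.12 on the log2 scale, and the same 6 of the 10 genes were called. Depth limits *Ripk3*, *Nlrp3*, *Casp4*, *Mlkl*, *Casp1* and *Il1b* under NL, where each had at most 13 reads per retina. The 2 count models listed at first were not run, because the deposited unit is FPKM. They could have been run on the recovered reads, for which only limma-voom was used.

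Replicate numbers 1, 4, 7 and 8 occur in both groups, but deviations of same-numbered retinas were correlated by only -0.0893 to 0.0656, and 1 of the 4 NL retinas correlated best with its own number. On these 8 retinas, the fit with the replicate block called 808 genes and 3 of the 10, and the fit without the block 1182 genes and 5 of the 10. *Nlrp3* was called in neither, and the block also lost *Casp4* (adjusted p = 0.0154 in limma) and *Gsdmd* (0.0122).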
